A study of Mus musculus with 24 samples.

Results

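Foxp3, Nrp1, Gpr83 and Lrrc32, genes tied to regulatory T cells, were followed in mouse CD4 T cells with and without the transcription factors Batf and Batf3. They are 4 of the 19938 genes with a named probe set. Each was read by the probe set that lists it as its only gene, and each has 1 such probe set (10598292 for Foxp3, 10576639 for Nrp1, 10583286 for Gpr83 and 10555174 for Lrrc32). The genes lie on chromosomes X, 8, 9 and 7, in that order. They were picked by name, together with the low-dose level of Foxp3 in knockout cells, so every Foxp3 comparison that holds that group is given as a description with no test.

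Naive CD4 T cells came from Batf and Batf3 double knockout (DKO) or wild-type (WT) mice, all labelled as strain 129SvEv. The series title asks how the strength of T cell receptor stimulation is turned into graded transcription through enhancers bound by Batf and Irf4. Cells were left unstimulated (day 0) or were stimulated under TH2 conditions and taken at day 2 or day 4, the latest samples at an anti-CD3e concentration of 2.2 or of 10 ng/ml. Anti-CD3e, which triggers the T cell receptor, was soluble, and anti-CD28 was cross-linked by an anti-hamster antibody on the plate. The 8 groups are therefore DKO and WT cells at day 0, at day 2 (concentration not given in the labels), at day 4 with 2.2 ng/ml and at day 4 with 10 ng/ml. Comparisons of day 4 with day 2 may thus mix time with dose, and these cannot be told apart. Each group held 3 arrays. Ages are not given, nor is it said that replicates are different mice or cultures. The p-values thus rest on the variation among these arrays alone, and that variation could be technical.

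Regulatory T cells restrain other T cells, and Foxp3 is the transcription factor that defines them. A part of them forms in the thymus, and others arise when naive CD4 T cells are stimulated in the presence of TGF-beta, whose Smad proteins act on the Foxp3 locus. Mutations of Foxp3 cause fatal autoimmunity in mice. Nrp1 is a co-receptor for semaphorins and vascular endothelial growth factor and marks regulatory T cells of thymic origin in mice. Gpr83 is a G protein-coupled receptor abundant in mouse regulatory T cells. Lrrc32 (also called GARP) holds latent TGF-beta at the surface of activated regulatory T cells. Batf belongs to the AP-1 family of leucine zipper proteins and pairs with Irf4 on composite DNA elements.

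The arrays were checked against their labels first. Batf was lower in DKO than in WT cells in all 4 states, for example 32.2 ± 4.99 in DKO cells and 1509 ± 125 in WT cells at 2.2 ng/ml (intensity, mean ± SD, n = 3 each). Batf3 stood clear of background in WT cells at 10 ng/ml, with 29.8 ± 4.56 in DKO cells and 146 ± 32.8 in WT cells there, and averaged 24.2 to 35.8 in the other groups, so it checks the label in that state alone. All 7 measured T cell identity genes were above an intensity of 28.6 in all groups. That value is the median of all probe set means and serves as a guide to background: a level near it may be background, and folds against such a level understate a change. Of 19 measured markers of B cells, myeloid cells, dendritic cells, NK cells, CD8 T cells, endothelial cells and platelets, 1 to 3 exceeded it in any group. WT replicate 3 at 2.2 ng/ml stood apart from the other arrays of its group, with Il4 at 99.9 against 22.2 and 18.1, but leaving it out changed no call on the 4 genes. Levels below are array intensities, and fold changes are ratios of geometric means from limma with 95% confidence intervals (CI). A gene is called changed at a Benjamini-Hochberg adjusted p under 0.05 over all 19938 genes. Whether the arrays of 2 groups overlap is given as a description only. The share of all genes whose arrays do not overlap is not given here.

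Foxp3 was highest in DKO cells at 4 days with the low anti-CD3e dose. There it read 263, 238 and 210.0 on the 3 DKO arrays, against 62.1, 82.1 and 53.5 on the 3 WT arrays. Every DKO array lay above every WT array, and above all 21 arrays of the other groups. The means were 237 ± 26.5 in DKO cells and 65.9 ± 14.7 in WT cells, a 3.64-fold difference. In bulk samples such as these, more cells of one type and more RNA per cell cannot be told apart.

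In the other states Foxp3 differed less between the genotypes. Naive cells read 83.3, 88.8 and 77.7 in DKO, against 70.1, 76.1 and 68.4 in WT, arrays that did not overlap but whose difference did not pass the test (1.16-fold, 95% CI 0.957 to 1.42, adjusted p = 0.808). Of all genes, 0.0652% were called in this comparison. At day 2 the arrays read 63.2, 66.6 and 62.4 in DKO cells and 43.2, 41.6 and 42.2 in WT cells. Again none overlapped, and Foxp3 was 1.51-fold higher in DKO cells (95% CI 1.24 to 1.84, adjusted p = 0.0148), in a comparison that called 2.71% of genes. At 10 ng/ml the arrays read 49.2, 51.7 and 47.3 in DKO cells and 28.4, 35.2 and 39.3 in WT cells. Foxp3 was 1.45-fold higher in DKO cells (95% CI 1.19 to 1.77, adjusted p = 0.00828), where 12.8% of genes were called. The day 2 call was lost without WT day 2 replicate 2 (adjusted p = 0.0651) or 3 (0.0506) or DKO day 2 replicate 2 (0.0614). Without each of the 6 arrays in turn its adjusted p ran from 0.0323 to 0.0651, above that of the full fit each time. The call at 10 ng/ml was lost without WT replicate 1 (adjusted p = 0.0826), the lowest WT array. The WT level at 10 ng/ml lay near the background guide of 28.6, with that array below it, and may be background.

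**Figure D1:**
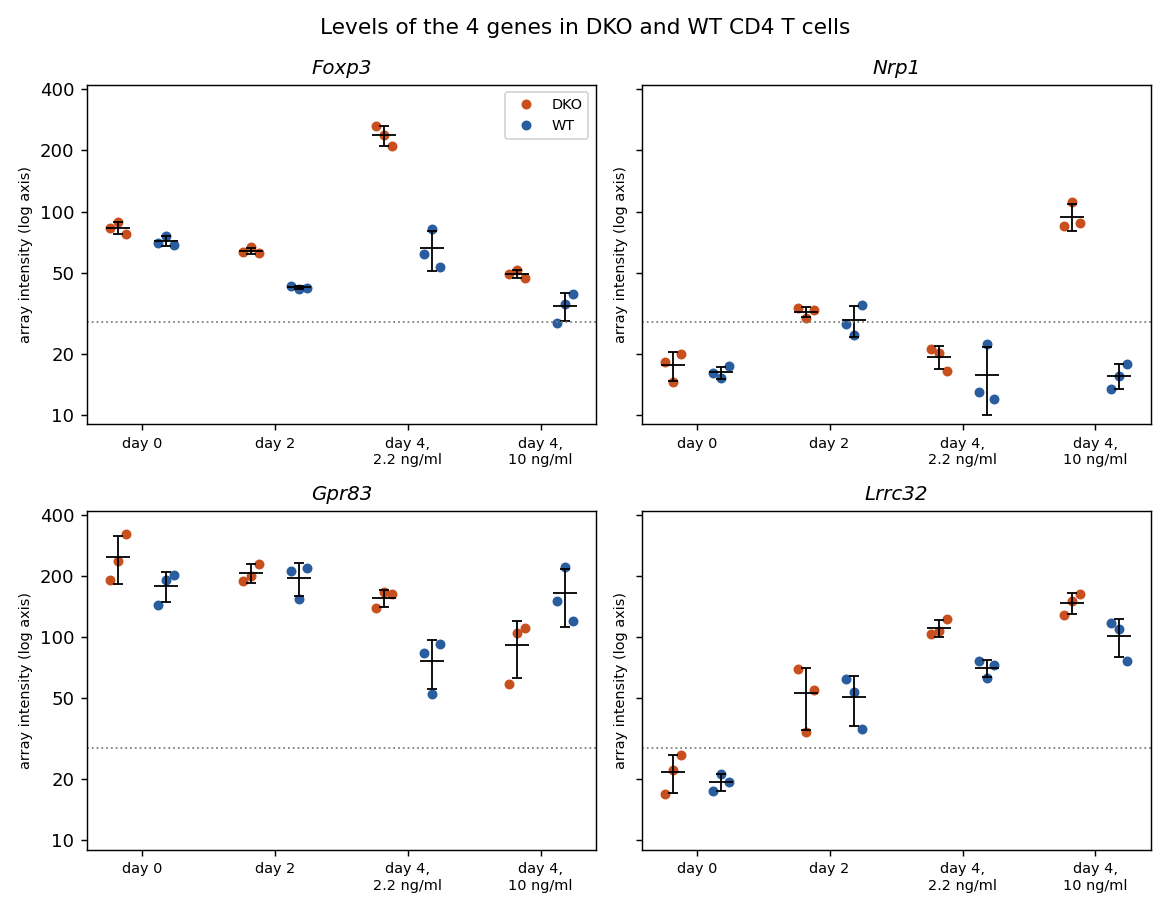
Array intensity (log axis) of Foxp3, Nrp1, Gpr83 and Lrrc32 in DKO (orange) and WT cells (blue) at day 0, day 2 and day 4 with 2.2 or 10 ng/ml of anti-CD3e. Points are single arrays, bars the mean ± SD of 3 arrays, and the dotted line the background guide of 28.6. Foxp3 stands at 237 in DKO cells at 2.2 ng/ml and Nrp1 at 94.4 in DKO cells at 10 ng/ml, each above all other groups of its gene.

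The sequence before the annotated start of Foxp3 is printed because the question of the series is about Batf and Irf4 at DNA, and this is the stretch next to the annotated start of the gene that defines the cell type. It is the 250 bases upstream of the first RefSeq start (GRCm38.p6, chrX:7579426-7579675, plus strand, 5′ to 3′). Capitals mark the letters TAAACA of a forkhead motif at -177 from the start. The Foxp3 protein itself belongs to the forkhead family of transcription factors.
Foxp3 upstream: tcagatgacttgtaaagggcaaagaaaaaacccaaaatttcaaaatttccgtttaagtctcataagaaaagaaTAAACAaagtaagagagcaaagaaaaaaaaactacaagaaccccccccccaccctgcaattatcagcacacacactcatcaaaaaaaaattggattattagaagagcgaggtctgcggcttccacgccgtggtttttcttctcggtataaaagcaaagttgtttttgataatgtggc
The window does not hold the AP-1 letters TGANTCA on either strand, and the forkhead match overlaps no other motif searched. It also holds the NFAT letters GGAAA once, on the opposite strand at -205 and not capitalised. A window before another RefSeq start of Foxp3, not printed, holds the GATA letters AGATAA at -47 and overlapping NFAT and STAT matches at -140 and -139. It does not hold the AP-1, IRF or forkhead letters. Of 32851 RefSeq windows of the same length, 6.75% hold the AP-1 letters, 2.98% the IRF, 12.03% the forkhead, 55.6% the NFAT, 9.99% the GATA and 7.02% the STAT letters. These are counts of letters in a window and show nothing about binding of any factor.

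Over the culture, Foxp3 in WT cells depended on the dose. In WT cells it was lower than at day 0 after 2 days (42.4 ± 0.822 at day 2 and 71.5 ± 4.05 at day 0, 1.69-fold lower, adjusted p = 7.73e-05) and after 4 days at 10 ng/ml (34.3 ± 5.52, 2.1-fold lower, adjusted p = 7.16e-07). At 2.2 ng/ml WT cells did not differ detectably from day 0 (0.908-fold, 95% CI 0.746 to 1.1, adjusted p = 0.499). These comparisons called 40.2%, 36.4% and 29.2% of all genes. Between day 4 at 2.2 ng/ml and day 2, WT cells were 1.53-fold higher (95% CI 1.26 to 1.86, adjusted p = 0.00375), with 11.2% of genes called, and this was lost without WT replicate 2 at 2.2 ng/ml (adjusted p = 0.0505). Between the doses WT cells at 10 ng/ml lay 1.91-fold below WT cells at 2.2 ng/ml (95% CI 1.57 to 2.32, adjusted p = 2.14e-05), where 15.2% of genes were called. The WT level at 10 ng/ml lay near the background guide, so the folds against it may understate the fall.

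In DKO cells Foxp3 at 10 ng/ml was 1.68-fold below day 0 (49.4 ± 2.20 and 83.3 ± 5.53, 95% CI 1.39 to 2.05, adjusted p = 9.91e-05), with 30.7% of genes called. At day 2 it averaged 64.1 ± 2.22, and its fall from day 0 passed at adjusted p = 0.0404 with 28.6% of genes called. That call was lost under 3 other settings and without 5 of the 6 arrays in turn, with adjusted p up to 0.134 without DKO day 0 replicate 2. At 2.2 ng/ml the DKO mean was 2.84-fold above day 0, 3.68-fold above day 2 and 4.78-fold above the DKO mean at 10 ng/ml, all as descriptions. The genotypes did not differ detectably in their change to day 2 (log2 difference 0.38 ± 0.19, adjusted p = 0.372, with 1.05% of genes called) or to 10 ng/ml (0.32 ± 0.19, adjusted p = 0.444). In order of level, DKO at 2.2 ng/ml came first, then DKO and WT day 0, WT at 2.2 ng/ml, DKO day 2, DKO at 10 ng/ml, WT day 2 and WT at 10 ng/ml. The arrays of WT day 0, WT at 2.2 ng/ml and DKO day 2 overlapped with their neighbours in this order, and those of the other neighbouring groups did not.

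Nrp1 was high in a single group, DKO cells at 10 ng/ml, the dose at which Foxp3 was low. It read 84.9, 111 and 87.6 in DKO cells, against 13.4, 15.5 and 17.8 in WT cells. The lowest DKO array lay above every array of the other 7 groups. The means of 94.4 ± 14.3 in DKO cells and 15.6 ± 2.20 in WT cells differed 6.06-fold (95% CI 4.62 to 7.94, adjusted p = 2.77e-10). Since the WT level lay below the background guide, this fold understates the difference. The call held without each of the 6 arrays in turn.

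At day 2 Nrp1 stood near the guide in both genotypes, with 32.1 ± 1.86 in DKO cells and 29.1 ± 5.08 in WT cells. Both were higher than at day 0, when DKO cells read 17.5 ± 2.79 and WT cells 16.2 ± 1.09 (1.85-fold in DKO cells, adjusted p = 0.000613, and 1.79-fold in WT cells, adjusted p = 0.000866). At day 4 with 2.2 ng/ml DKO cells read 21.1, 20.2 and 16.4 and were 1.68-fold below day 2 (adjusted p = 0.018). With 10 ng/ml they were 2.92-fold above it (adjusted p = 8.75e-06). These comparisons called 6.17% and 5.18% of genes, and the first was lost without DKO day 2 replicate 3 (adjusted p = 0.064) or DKO replicate 3 at 2.2 ng/ml (0.0836). WT cells fell from day 2 at both doses, 1.91-fold at 2.2 ng/ml (adjusted p = 0.00169) and 1.86-fold at 10 ng/ml (adjusted p = 0.000813), the last with 23.2% of genes called.

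Between the doses Nrp1 was 4.91-fold higher at 10 than at 2.2 ng/ml in DKO cells (95% CI 3.74 to 6.43, adjusted p = 1.01e-08), where 8.15% of genes were called. In WT cells the same comparison gave 1.02-fold (95% CI 0.782 to 1.34, adjusted p = 0.947). The difference between the genotypes in this dose response was itself tested and was 2.26 ± 0.27 on the log2 scale (adjusted p = 3.53e-06), in a test that called 6.94% of genes. At 2.2 ng/ml the genotypes overlapped, with 19.2 ± 2.52 in DKO cells and 12.9, 22.4 and 11.9 on the WT arrays (1.26-fold, 95% CI 0.965 to 1.66, adjusted p = 0.496). Without the highest of these, WT replicate 2, the comparison passed (adjusted p = 0.0357). Apart from DKO at 10 ng/ml and the 2 day 2 groups, the other 5 groups averaged 15.6 to 19.2, and neighbours among them in the order of levels overlapped.

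Gpr83 had the opposite dose response in the 2 genotypes. At 2.2 ng/ml it read 139, 167 and 163 in DKO cells, against 83.7, 52.8 and 92.8 in WT cells. No array overlapped, and DKO cells were 2.1-fold higher (95% CI 1.47 to 3, adjusted p = 0.0126), in a comparison with 3.71% of genes called. At 10 ng/ml it read 58.9, 105 and 111 in DKO cells, against 151, 223 and 120.5 in WT cells. Here the DKO arrays were the lower ones, again with no overlap, and DKO cells were 1.81-fold lower (95% CI 1.27 to 2.59, adjusted p = 0.0226).

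Both calls rested on few arrays. The first was lost without WT replicate 2 (adjusted p = 0.0835) or DKO replicate 2 (0.0629) at 2.2 ng/ml. The second was lost without WT replicate 2 (0.168) or DKO replicate 1 (0.198) at 10 ng/ml, and when the 2 groups were fitted alone (0.0635). Within the genotypes, Gpr83 in DKO cells at 10 ng/ml was 1.77-fold below DKO cells at 2.2 ng/ml (95% CI 1.24 to 2.53, adjusted p = 0.0411). That call was lost without any 1 of the 3 arrays at 2.2 ng/ml (adjusted p = 0.0671, 0.126 and 0.109 without replicates 1, 2 and 3) and without DKO replicate 1 at 10 ng/ml (0.278). WT cells at 10 ng/ml were 2.14-fold above WT cells at 2.2 ng/ml (95% CI 1.5 to 3.07, adjusted p = 0.00271). For Gpr83 the genotype difference in dose response was -1.92 ± 0.35 on the log2 scale (adjusted p = 0.000871) and passed without each array in turn.

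**Figure D2:**
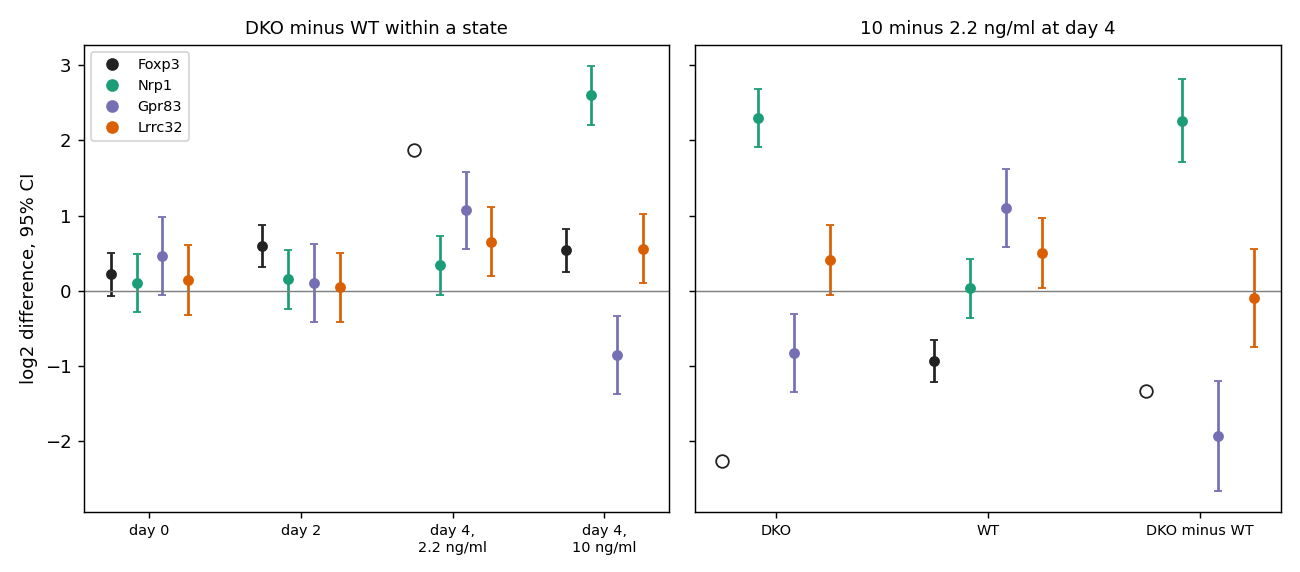
Log2 differences with 95% CI: left, DKO minus WT in each state; right, 10 minus 2.2 ng/ml at day 4 in DKO cells, in WT cells and the difference between these. Open circles are the Foxp3 comparisons given with no test. Nrp1 lies at 2.60 at 10 ng/ml and Gpr83 changes sign between the doses, from 1.07 at 2.2 to -0.86 at 10 ng/ml.

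Naive cells held Gpr83 at 191, 237 and 322 in DKO and at 145, 191 and 202 in WT, overlapping ranges (1.37-fold, 95% CI 0.961 to 1.97, adjusted p = 0.752). Day 2 was alike in level, with 207 ± 21.2 in DKO cells and 195 ± 36.0 in WT cells, and neither genotype had passed the test against day 0. By day 4 Gpr83 was 2.39-fold below day 0 in WT cells at 2.2 ng/ml (95% CI 1.67 to 3.42, adjusted p = 0.000334). It was 2.77-fold below day 0 in DKO cells at 10 ng/ml (95% CI 1.94 to 3.97, adjusted p = 4.31e-05). DKO cells at 2.2 ng/ml, with 19.9% of genes called against day 0, did not pass (1.57-fold lower, 95% CI 1.1 to 2.24, adjusted p = 0.0734), though they did without DKO day 0 replicate 1 (0.0392) and under 3 other settings. WT cells at 10 ng/ml averaged 165 ± 52.5 and did not pass either (0.897-fold, 95% CI 0.627 to 1.28). The difference between the genotypes in the change from day 0 to 10 ng/ml was -1.32 ± 0.35 (log2, adjusted p = 0.0224, with 6.52% of genes called). It was lost without WT day 0 replicate 1 (adjusted p = 0.0694), WT replicate 2 at 10 ng/ml (0.0789), DKO day 0 replicate 3 (0.0791) or DKO replicate 1 at 10 ng/ml (0.0884). In order of level, the 6 highest groups ran from 249.9 ± 66.7 in naive DKO cells to 156 ± 15.3 in DKO cells at 2.2 ng/ml with each pair of neighbours overlapping, and DKO at 10 ng/ml (91.4 ± 28.3) and WT at 2.2 ng/ml (76.4 ± 21.0) lay below them.

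Lrrc32 rose with activation in both genotypes and at both doses. Naive cells lay below the background guide, at 21.7 ± 4.69 in DKO and 19.4 ± 1.89 in WT. At day 2 DKO cells read 69.7, 34.2 and 54.9 and WT cells 62.5, 53.7 and 35.5, ranges that overlapped with each other but not with day 0. At day 4 with 2.2 ng/ml the arrays read 103, 107 and 123 in DKO cells and 76.2, 63.0 and 73.0 in WT cells. With 10 ng/ml they read 129, 152 and 163 in DKO cells and 118, 109.6 and 76.7 in WT cells. All 6 comparisons with day 0 were called, from 2.37-fold in DKO cells at day 2 (adjusted p = 8.87e-05) to 6.88-fold in DKO cells at 10 ng/ml (95% CI 5 to 9.48, adjusted p = 3.91e-10), and these held without each array in turn. Of all genes, these comparisons called from 19.9% (DKO cells at 2.2 ng/ml) to 40.2% (WT cells at day 2).

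Between the genotypes neither Lrrc32 difference at day 4 passed over all genes, although at both doses the DKO arrays lay above the WT arrays without overlap. The genotypes' changes from day 0 to 2.2 ng/ml differed by 0.51 ± 0.32 on the log2 scale (adjusted p = 0.641, with 1.48% of genes called). The level difference was 1.57-fold at 2.2 ng/ml (95% CI 1.14 to 2.16, adjusted p = 0.129) and 1.48-fold at 10 ng/ml (95% CI 1.07 to 2.03, adjusted p = 0.115). Fitted with the 2 groups alone, the first passed (adjusted p = 0.0314). Dose comparisons did not pass either, with 1.33-fold in DKO cells (95% CI 0.965 to 1.83, adjusted p = 0.353) and 1.41-fold in WT cells (95% CI 1.03 to 1.95, adjusted p = 0.156). Between day 4 and day 2, Lrrc32 was higher in DKO cells at 2.2 ng/ml (2.18-fold, adjusted p = 0.00289) and at 10 ng/ml (2.9-fold, adjusted p = 8.97e-05) and in WT cells at 10 ng/ml (2.03-fold, adjusted p = 0.00121). WT cells at 2.2 ng/ml did not pass (1.43-fold, 95% CI 1.04 to 1.97, adjusted p = 0.154).

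Across the 24 arrays, which share groups and normalization, log2 levels of Foxp3 correlated at -0.19 with Nrp1, 0.06 with Gpr83 and -0.03 with Lrrc32. The other pairs gave -0.27 for Nrp1 and Gpr83, 0.42 for Nrp1 and Lrrc32 and -0.49 for Gpr83 and Lrrc32. Markers of other cell types were set beside these results, and their part in them was not tested. Summed over 19 markers, the arrays ran from 305 to 337 in DKO cells and from 309 to 329 in WT cells at 2.2 ng/ml, where Foxp3 differed most. At 10 ng/ml they ran from 361 to 399.7 in DKO cells and from 284 to 329.7 in WT cells. The B cell receptor chain gene Cd79b moved there, with 88.8 ± 27.9 in DKO cells and 27.2 ± 4.15 in WT cells (3.2-fold, adjusted p = 2.7e-07), while the B cell genes Cd79a and Ms4a1 lay below the background guide in all groups. Cd79b was also higher in DKO cells at day 2 (38.8 ± 6.45 in DKO cells and 23.2 ± 1.40 in WT cells, adjusted p = 0.0284). That call was lost under 7 of 14 alternatives, left-out arrays included (adjusted p up to 0.157). The other markers above the guide were Cd8b1 in all groups and Itga2b in 3 groups of day 0 and day 2. The summed T cell identity genes ran from 6319 to 6929 in DKO cells and from 7690 to 8449 in WT cells at 10 ng/ml.

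More genes of a wider regulatory T cell signature were lower than higher in DKO cells at day 4. The list holds 24 genes, all measured. At 2.2 ng/ml 3 were higher and 10 lower in DKO than in WT cells, with 11 not called, where 1.65% of all genes were higher and 2.06% lower. The median log2 difference was -0.36 against 0.00 over all genes. The immunosuppressive cytokine Il10 read 8.73 ± 1.23 in DKO cells, a background level, and 428 ± 146 in WT cells, a 47.1-fold difference that understates the change (adjusted p = 4.07e-13). Also lower were Prdm1, the gene of the effector regulator Blimp-1 (4.92-fold, adjusted p = 8.65e-09), the inhibitory receptor Ctla4 (415 ± 94.1 in DKO cells and 1611 ± 97.7 in WT cells, 3.95-fold, adjusted p = 1.96e-05) and the costimulatory receptor Tnfrsf4 (2.54-fold, adjusted p = 1.38e-05).

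The 3 higher signature genes, named after their values were seen, were Tnfrsf9, Ikzf4 and Izumo1r. Tnfrsf9, a costimulatory receptor, read 176 ± 25.7 in DKO cells and 96.6 ± 11.3 in WT cells (1.82-fold, adjusted p = 0.00232). Ikzf4, the Ikaros family factor Eos that works with Foxp3, was 1.5-fold higher (adjusted p = 0.0263), and Izumo1r, the folate receptor 4 of regulatory T cells, 1.44-fold (adjusted p = 0.0478). The call of Ikzf4 was lost without WT replicate 1 or 3 or DKO replicate 1 or 2 (adjusted p up to 0.181), and that of Izumo1r without WT replicate 1 or 2 or DKO replicate 2 or 3 (up to 0.207). Both were also lost with the 2 groups fitted alone, and Izumo1r with the replicate number as a block (0.0547). Izumo1r neighbours Gpr83 in the RefSeq gene table with no gene between them. Like Gpr83 it was higher in WT cells at 10 than at 2.2 ng/ml (485 ± 82.4 and 284 ± 41.0, 1.7-fold, adjusted p = 0.000557), but in DKO cells it did not pass between the doses (1.12-fold, 95% CI 0.902 to 1.38). Ikzf2, the gene of Helios and another marker of thymic regulatory T cells, averaged between 21.4 and 30.2 over the groups, with 27.3 ± 1.51 in DKO cells and 21.4 ± 1.05 in WT cells at 2.2 ng/ml (adjusted p = 0.446). It too was chosen after its values were seen.

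At 10 ng/ml 2 signature genes were higher and 11 lower in DKO cells, where 6.68% of all genes were higher and 6.09% lower, with a median of -0.45 against 0.03 over all genes. Lower were Il10 (66.7-fold, adjusted p = 2.17e-14), Ctla4 (223 ± 15.5 in DKO cells and 2895 ± 569 in WT cells, 12.8-fold, adjusted p = 2.09e-10), Prdm1 (5.26-fold, adjusted p = 1.07e-09) and the inhibitory receptor Tigit (136 ± 41.9 in DKO cells and 825 ± 118 in WT cells, 6.21-fold, adjusted p = 3.37e-08). The 2 higher genes were the costimulatory receptor Icos (1001 ± 68.6 in DKO cells and 540.4 ± 31.8 in WT cells, 1.85-fold, adjusted p = 1.11e-05) and the cytokine subunit Ebi3 (412 ± 53.5 in DKO cells and 167 ± 27.7 in WT cells, 2.48-fold, adjusted p = 0.000108), both named after their values were seen. Icos had been lower in DKO cells at 2.2 ng/ml (1.84-fold, adjusted p = 4.66e-05). Tnfrsf9, higher at 2.2 ng/ml, was 2.03-fold lower in DKO cells at 10 ng/ml (219.7 ± 44.7 in DKO cells and 447 ± 91.7 in WT cells, adjusted p = 9.2e-05). Ikzf4, also higher at 2.2 ng/ml, was 1.38-fold lower at 10 ng/ml (106 ± 12.0 in DKO cells and 147 ± 12.4 in WT cells, adjusted p = 0.0414), a call lost without any 1 of WT replicates 1 to 3 or DKO replicates 1 and 2 (adjusted p up to 0.153). That call was also lost after quantile normalization (0.0540) and with robust moderation and a variance trend (0.0510). At day 2, 0 were higher and 5 lower (1.03% and 1.68% of all genes), led by Il10 (6.65-fold, adjusted p = 5.35e-07) and Tnfrsf4 (2.05-fold, adjusted p = 0.000811). In naive cells 1, the interleukin-2 receptor chain Il2rb, was higher (1.93-fold, adjusted p = 0.00402, or 0.381 with the 2 groups fitted alone) and 0 were lower (0.0552% and 0.01% of all genes). Many of these genes also mark activated and TH2 effector cells, so the list is not specific to regulatory T cells.

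**Figure D3:**
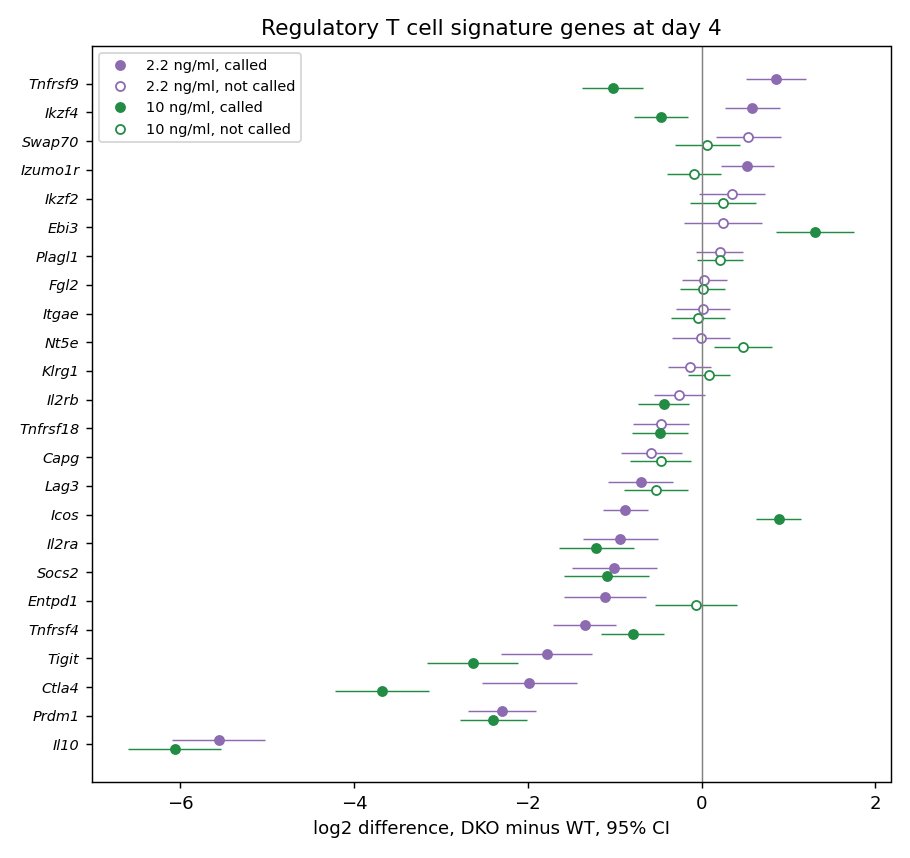
Log2 difference (DKO minus WT, 95% CI) of the 24 signature genes at day 4 with 2.2 ng/ml (purple) and 10 ng/ml (green), ordered by the first. Filled points were called and open points were not. Most called genes lie left of 0, Il10 furthest at -5.56 and -6.06, while Tnfrsf9, Ikzf4 and Izumo1r lie right of it at 2.2 ng/ml and Icos and Ebi3 at 10 ng/ml.

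Among genes that act upstream of Foxp3, the TGF-beta receptor Tgfbr1 and the factor Rel were higher in DKO cells at 2.2 ng/ml. Of 19 genes of the inducing pathway, 6 were higher and 1 lower, where 1.65% of all genes were higher and 2.06% lower. The list's median was 0.15 against 0.00 over all genes. Tgfbr1, the signalling receptor for TGF-beta, read 693 ± 152 in DKO cells and 251 ± 53.9 in WT cells (2.76-fold, 95% CI 2.12 to 3.6, adjusted p = 9.93e-06). The NF-kappaB subunit Rel, which acts at an enhancer of Foxp3, read 569.9 ± 28.1 in DKO cells and 305 ± 22.3 in WT cells (1.87-fold, adjusted p = 1.33e-05). The orphan nuclear receptor Nr4a3, an early target of receptor signalling, was 2.59-fold higher (adjusted p = 0.000646). Nfatc2, a calcium-dependent factor, was 1.92-fold lower (99.2 ± 11.9 in DKO cells and 192 ± 29.9 in WT cells, adjusted p = 4.86e-05).

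The other 3 higher genes of this list were Nr4a1, Stat5a and Smad4, named after their values were seen, with adjusted p from 0.0285 to 0.0356. Each lost its call without single arrays and with the 2 groups fitted alone (adjusted p up to 0.244). Tgfbr1 in DKO cells shared with Foxp3 a lower level at 10 ng/ml, 258 ± 8.29 against 693 ± 152 at 2.2 ng/ml (2.64-fold lower, adjusted p = 1.29e-05). Against WT cells at 10 ng/ml it was still 1.79-fold higher (adjusted p = 0.00242). At that dose the list had 4 higher and 5 lower genes (6.68% and 6.09% of all genes) and a median of -0.01 against 0.03 over all genes. Rel was 3.13-fold higher (adjusted p = 1.71e-10) and Nr4a3 7.16-fold (261 ± 65.2 in DKO cells and 36.1 ± 7.15 in WT cells, adjusted p = 3.6e-09). Foxo1, a factor that promotes Foxp3 in resting cells, was 2.79-fold lower (185 ± 21.2 in DKO cells and 519 ± 98.6 in WT cells, adjusted p = 7.55e-07). At day 2 the list had 1 higher gene, Rel (1.69-fold, adjusted p = 0.000275), and 0 lower, where 1.03% of all genes were higher and 1.68% lower.

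Among genes that oppose Foxp3 induction, 8 of 9 were measured, and at 2.2 ng/ml 2 were lower in DKO cells and 0 higher, against 2.06% and 1.65% of all genes. The TH2 regulator Gata3 read 516 ± 30.5 in DKO cells and 1171 ± 104 in WT cells (2.26-fold lower, adjusted p = 1.09e-06), and Stat3, a mediator of interleukin-6 signals, was 1.78-fold lower (adjusted p = 0.000108). At 10 ng/ml, where 6.09% of all genes were lower and 6.68% higher, both were lower again (Stat3 2.62-fold, adjusted p = 1.22e-08, and Gata3 1.82-fold, adjusted p = 2.46e-05). Uhrf1 and Dnmt1, which maintain DNA methylation, were higher there (1.92-fold, adjusted p = 0.00296, and 1.35-fold, adjusted p = 0.00502). The list's median was -0.12 at 2.2 ng/ml and 0.01 at 10 ng/ml. Of 6 genes that Foxp3 represses, 0 were called at 2.2 ng/ml in either direction by limma, against 3.71% of all genes, and 2 were lower at 10 ng/ml, against 6.09%, the TH2 cytokine Il4 (21.3 ± 2.39 in DKO cells and 330.4 ± 61.7 in WT cells, adjusted p = 1.07e-08) and the chromatin organiser Satb1 (1.75-fold, adjusted p = 4.01e-05).

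Lrrc32 works with latent TGF-beta, and the genes of its storage and release were counted next to it. Of 13 genes, 0 were higher and 1 lower in DKO cells at 2.2 ng/ml, Tgfb1 itself (298 ± 30.6 in DKO cells and 459 ± 71.3 in WT cells, 1.53-fold, adjusted p = 0.00867), a call lost without WT replicate 1 (0.0755) or DKO replicate 3 (0.0601) and with the 2 groups fitted alone (0.0698). Of all genes 1.65% were higher and 2.06% lower there, and 1 of 13 is too few to be read as a result about the list. At 10 ng/ml 2 were higher and 4 lower, against 6.68% and 6.09% of all genes. Tgfb3, another TGF-beta isoform, read 17.5 ± 2.16 in DKO cells and 107 ± 31.9 in WT cells (5.94-fold lower, adjusted p = 2.77e-10). The integrin chain Itgav, which takes part in TGF-beta release, was 2.77-fold lower (adjusted p = 1.12e-07), and the latent TGF-beta binding protein Ltbp3 2.03-fold lower (adjusted p = 1.01e-06). Nrros, a relative of Lrrc32 that holds latent TGF-beta on myeloid cells, was 1.89-fold higher (112 ± 10.4 in DKO cells and 58.8 ± 2.32 in WT cells, adjusted p = 4.65e-05). In WT cells Tgfb3 was 7.25-fold higher (adjusted p = 6.65e-11) and Nrros 2.08-fold lower (adjusted p = 7.43e-06) at 10 than at 2.2 ng/ml. Median log2 differences of the list were 0.00 at 2.2 ng/ml and 0.03 at 10 ng/ml, the values of all genes.

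Partners and ligands of neuropilins were set beside Nrp1. Of 13 genes, 0 were called between the genotypes at 2.2 ng/ml and 1 at 10 ng/ml, against 3.71% and 12.8% of all genes, so these counts are no result about the list. The 1 called at 10 ng/ml was Sema4a: this semaphorin, which binds Nrp1 on regulatory T cells, read 157 ± 33.4 in DKO cells and 97.3 ± 9.85 in WT cells (1.59-fold, adjusted p = 0.00648), a call lost without DKO replicate 1 (0.0701). At day 2, 1 was higher, Sema4a (1.54-fold, adjusted p = 0.0433), and 1 lower, Vegfa (2.33-fold, adjusted p = 0.0111), against 1.03% and 1.68% of all genes. The first was lost without any 1 of the 6 arrays (adjusted p up to 0.197) and with the 2 groups fitted alone (0.0525). The second was lost without WT replicate 1 (0.0875) or 2 (0.0602) or DKO replicate 2 (0.0562). The growth factor gene Vegfa was higher at 10 than at 2.2 ng/ml in both genotypes, 3.97-fold in DKO cells (156 ± 38.4 and 39.0 ± 7.32, adjusted p = 1.82e-05) and 3.7-fold in WT cells (222 ± 106 and 55.5 ± 5.85, adjusted p = 1.55e-05). Of the Gpr83 ligand precursor and G protein genes, 4 of 5 were measured and 0 were called between the genotypes at either dose of day 4, near the 3.71% and 12.8% of all genes called. Gnaq, which couples receptors to phospholipase C, was lower at 10 than at 2.2 ng/ml in DKO cells (log2 difference -0.76, adjusted p = 0.0451), a call lost under several alternatives (adjusted p up to 0.231, without DKO replicate 1 at 10 ng/ml).

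The genes most like each member were sought among genes above the median level whose groups spanned at least 0.5 on the log2 scale, 7651 for Foxp3. Pearson correlations of log2 levels over the 24 arrays were used, a description only, since arrays share groups and normalization. Nearest to Foxp3 were Ift80 (0.91), Ms4a4c (0.90), Ccdc22 (0.89), Tmie (0.89) and Tdgf1 (0.89). Ift80, a component of intraflagellar transport, read 297 ± 20.8 in DKO cells and 103 ± 19.4 in WT cells at 2.2 ng/ml. Ms4a4c, a membrane protein of the Ms4a family, read 174 ± 11.9 in DKO cells and 54.1 ± 14.3 in WT cells there. Ccdc22, a subunit of an endosomal sorting complex, read 211 ± 22.9 in DKO cells and 119 ± 10.3 in WT cells there. Ccdc22 is the neighbour of Foxp3 on chromosome X, and their spans overlap in the RefSeq gene table. Whether their probe sets share sequence was not tested.

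**Figure D4:**
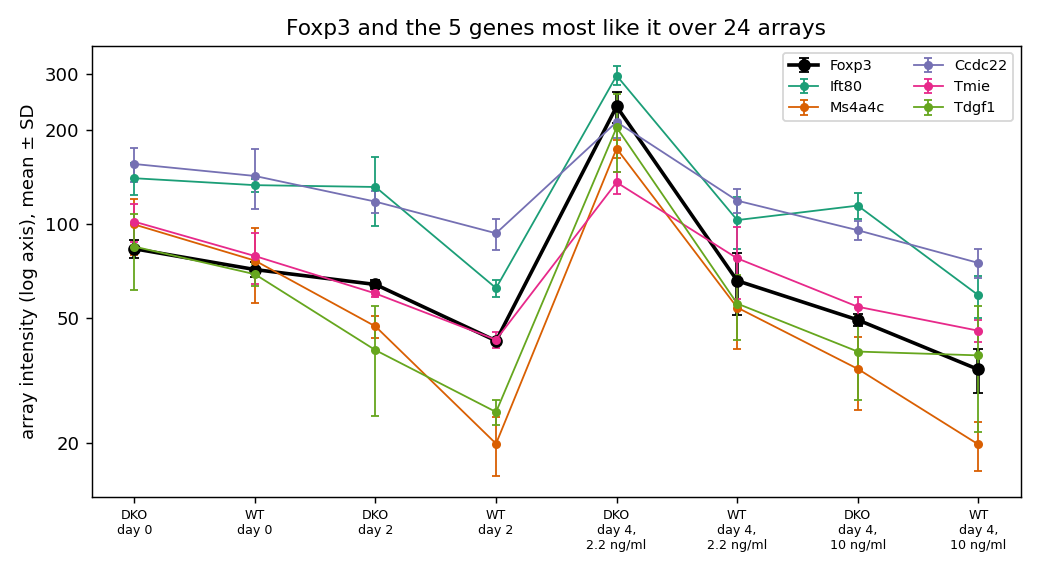
Array intensity (log axis, mean ± SD of 3 arrays) of Foxp3 (black) and the 5 genes most like it over the 8 groups. The lines join groups to aid the eye, and each gene is highest in DKO cells at 2.2 ng/ml, by construction of the choice.

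For Nrp1 the nearest genes were Sirpa (0.90), Serpinb6b (0.87), Zbtb10 (0.84), Tbc1d4 (0.84) and Tnfsf15 (0.82). Serpinb6b, a serine protease inhibitor, read 234 ± 84.9 in DKO cells and 37.0 ± 11.2 in WT cells at 10 ng/ml, and Sirpa, the inhibitory receptor for CD47, 73.9 ± 14.3 in DKO cells and 30.0 ± 5.56 in WT cells. Gpr83 had no gene as close, with Mtmr2 first at 0.78 and Rev1, Fam3c, Ctsl and Thoc2l from 0.74 to 0.70. Lrrc32 was nearest to Fam229b (0.95), the ribosomal protein gene Rpl28 (0.93), the ATP synthase gene Atp5g2 (0.91), the tubulin gene Tube1 (0.91) and the cell cycle factor Tfdp2 (0.91), all of them lowest in naive cells of both genotypes.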

How the data were processed

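Biotin-labelled RNA of 24 samples was hybridised to GeneChip arrays, 3 for each of 8 groups taken from the sample titles. The deposited values are linear intensities made by the authors with RMA, per the submitters' processing notes, with software version and later steps not given in the sources used here. They reach 14645 over 35556 probe sets. Each was turned into log2 here, and the number of arrays limits the precision. RMA includes a normalization between arrays, but array medians still ran from 26.4 to 31.6, and correlations within a group from 0.983 to 0.992.

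Probe sets with 1 symbol (21789) were used, and those with several (1621) or with none listed (12146) were left out. For 999 genes with several probe sets the brightest was taken, which left 19938 genes. The RefSeq gene table (GRCm38.p6) matched 21698 probe sets by Entrez number and changed 0 symbols, and the arrays' own build is unnamed. Promoter windows came from RefSeq GRCm38.p6 for Foxp3, Nrp1 and Gpr83.

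limma 3.58.1 in R 4.3.3 fitted a mean for each group to all 24 arrays (16 residual and 7.49 prior degrees of freedom), from which 20 contrasts were taken: 4 between genotypes, 6 against day 0, 4 against day 2, 2 between doses and 4 differences between genotypes in response. Within a contrast, Benjamini-Hochberg adjustment ran over all genes, and a gene was called under 0.05. The script was tested on simulated data. The members and gene lists were chosen with earlier results of these data known. Named genes are the members, Batf and Batf3, up to 4 genes with the smallest p from each list in a contrast, and the 5 genes most like each member, leaving out predicted, small RNA, antigen receptor, X-inactivation and Y-linked genes. A few genes of the lists are not reported here.

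Alternatives were a filter on dim genes, averaging probe sets of a gene, quantile or cyclic loess normalization on top of the deposited values, array weights, robust moderation with a variance trend, a fit of the compared groups by themselves, a block for the replicate number, and leaving out 1 array at a time. List counts without WT replicate 3 at 2.2 ng/ml, and the alternatives for list genes, were added after seeing the data.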

Additional observations from a re-analysis of the deposited data

Results flagged for a closer look

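Nrp1 and Gpr83 responded differently in the 2 genotypes by the test of the difference itself. For Nrp1, the change from day 0 to 10 ng/ml was larger in DKO than in WT cells by 2.49 ± 0.27 on the log2 scale (limma adjusted p = 5.7e-07), and the change from 2.2 to 10 ng/ml by 2.26 ± 0.27 (adjusted p = 3.53e-06). Nrp1 read 94.4 ± 14.3 in DKO cells and 15.6 ± 2.20 in WT cells at 10 ng/ml.

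For Gpr83, the change from day 0 to 10 ng/ml differed by -1.32 ± 0.35 (DKO minus WT, adjusted p = 0.0224) and the change from 2.2 to 10 ng/ml by -1.92 ± 0.35 (adjusted p = 0.000871). The first of these calls was lost without some single arrays (adjusted p up to 0.0884). DKO cells went lower and WT cells higher with the dose, 91.4 ± 28.3 at 10 and 156 ± 15.3 at 2.2 ng/ml in DKO cells, and 165 ± 52.5 and 76.4 ± 21.0 in WT cells. The fall in DKO cells lost its call without some single arrays (adjusted p up to 0.278) and after quantile normalization (0.0511). The cause of the Nrp1 and Gpr83 differences was not tested.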

How the results depend on the processing

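Of the tested results on the 4 genes under alternatives other than left-out arrays, 581 stayed called or stayed not called, 6 gained the call and 5 lost it. With single arrays left out, 501 kept their status, 3 gained the call and 24 lost it. In both sets, 0 results called in either fit changed sign. A change of sign in results called in neither fit was not counted. The Foxp3 comparisons that hold DKO cells at 2.2 ng/ml have no call and are not counted. The log2 difference of Foxp3 between DKO and WT at 2.2 ng/ml ran from 1.73 to 2.03 with 1 array left out. This range is a description only, since that level was part of how the genes were picked. Values are adjusted p from limma unless said otherwise, and the cause of each change was not tested. The Foxp3 difference between day 2 and day 0 in DKO cells was lost after quantile (0.0872) or loess normalization (0.0946) and with a variance trend (0.059), and the Gpr83 dose difference in DKO cells after quantile normalization (0.0511). Gpr83 in DKO cells at 2.2 ng/ml against day 0 gained the call after quantile (0.0492) or loess normalization (0.0488) and with the groups alone (0.0268), and Foxp3 in WT cells at 10 ng/ml against day 2 after quantile normalization (0.0453) and with array weights (0.0300). With the groups alone, DKO against WT passed for Lrrc32 at 2.2 ng/ml (0.0314) and was lost for Gpr83 at 10 ng/ml (0.0635). The count of genes called between DKO and WT was 13 at day 0, against 4 with loess, 2 with the groups alone and 6 with array weights, and 739 at 2.2 ng/ml, against 462 with the groups alone. With 1 array left out, DKO against WT ranged for Foxp3 from 0.0323 to 0.0651 at day 2 and from 0.00414 to 0.0826 at 10 ng/ml, for Nrp1 at 2.2 ng/ml from 0.0357 to 0.915, and for Gpr83 from 0.0105 to 0.0835 at 2.2 ng/ml and from 0.00936 to 0.198 at 10 ng/ml. In DKO cells, Foxp3 at day 2 against day 0 ranged from 0.0440 to 0.134, Gpr83 at 2.2 ng/ml against day 0 from 0.0392 to 0.305, Nrp1 at 2.2 ng/ml against day 2 from 0.0369 to 0.0836, and Gpr83 between the doses from 0.0323 to 0.278. In WT cells, Foxp3 against day 2 ranged from 0.000672 to 0.0505 at 2.2 ng/ml and from 0.0440 to 0.458 at 10 ng/ml. The genotype difference of Gpr83 in the change from day 0 to 10 ng/ml ranged from 0.00926 to 0.0884. Counts of called genes ranged, for DKO against WT, from 4 to 14 at day 0, from 298 to 590 at day 2 (541 with all arrays) and from 489 to 819 at 2.2 ng/ml. Against day 2 they ranged from 1223 to 2645 in WT cells at 2.2 ng/ml (2233 with all arrays), from 564 to 1301 in DKO cells at 2.2 ng/ml (1230) and from 583 to 984 in DKO cells at 10 ng/ml (1033). They ranged from 1058 to 1453 between the doses in DKO cells (1625) and from 98 to 257 for the genotype difference in the change to day 2 (209). Of 74 called results on list genes examined, 58 stayed called under all alternatives run. Same-numbered samples did not deviate together in the median pair (correlation 0.000998 over 84 pairs, from -0.152 to 0.264). Deviations were taken from means of 3 arrays, so this check cannot tell whether some of them share a source. A replicate block changed no call on the 4 genes and ended those of Izumo1r between DKO and WT at 2.2 ng/ml (0.0547) and of Tgfb1 between the doses in DKO cells (0.0559). Renormalizing moved the median gene by over 0.1 on the log2 scale against day 0 in DKO cells at 10 ng/ml (0.118 with quantile normalization) and in WT cells at day 2 (0.142 with quantile normalization, 0.136 with loess), at 2.2 ng/ml (0.123 with quantile normalization) and at 10 ng/ml (0.119 with quantile normalization, 0.128 with loess), so changes from day 0 are relative to such shifts. Levels of Nrp1 in 5 groups and of Lrrc32 at day 0 lie below the background guide and have no firm order.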
